A study of Sus scrofa with 2 samples.

Results

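The proliferation and cyclin genes measured here in pig ovary are 6 regulators of the cell cycle: CDC20, CDK1 and BIRC5, which act in mitosis, the D-type cyclins CCND2 and CCND3, and the transcription factor gene MYC. Their probes were those, controls aside, that carried a RefSeq transcript of any of these genes in the pig annotation. All 6 genes were found, with 11 probes, among 2459 genes that could be named on the arrays and 2363 that had a value.

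The study compared ovarian gene expression between conventional pigs and minipigs while the corpora lutea regress. The conventional pigs were Yorkshire sows and the minipigs were of the Midget breed, all of them female, 10 months old and at day 15 of the estrous cycle. Ovarian tissue from which the corpora lutea had been excised gave the RNA for single-colour Agilent arrays, 1 array per breed, both on 1 slide. The methods list 5 animals per breed, and whether RNA was pooled is not given in the sources used here.

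The cell cycle is driven by cyclin-dependent kinases, each active only while bound to a cyclin. D-type cyclins respond to mitogens and hormones and start the passage through G1, whereas CDK1 with the B cyclins drives entry into mitosis, and the anaphase-promoting complex with CDC20 ends it by marking cyclins for destruction. In the ovary many of the dividing cells are granulosa cells of growing follicles, in which follicle-stimulating hormone induces CCND2, while cells that luteinise leave the cycle.

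Each array held 43803 spots other than controls. The median intensity of the probes was 128 in the minipig and 119 in the conventional pig, where the intensity is the brightness of a spot after background correction. A probe counted as well above background by the flag of the scanner software, which held for 88.1% of the probes in the minipig and 85.2% in the conventional pig. The level of a probe is its log2 intensity minus the 75th percentile of its array, so that 0 stands for an intensity of 494 in the minipig and of 513 in the conventional pig. A log2 difference is conventional pig minus minipig, and a negative value means higher in the minipig. Minipig and conventional pig stand for the arrays with these labels in the scanner output. For genes with several probes the median over them was taken, except in the summed levels of cell markers.

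The breed labels of the arrays differ between the deposited files. The authors deposited the scanner output and also a table of log2 values, and these assign the arrays to opposite breeds. The column for minipig in the table matched the scanner output labelled conventional pig to within 7.46e-07 after 1 constant was subtracted, and the column for conventional pig matched the scanner output labelled minipig to within 5.24e-07. The study counts its probes past 2-fold in the direction that the scanner labels give, and nothing in the files shows independently which array came from which breed. The labels of the scanner output were used for every value, and every direction would be the opposite under the labels of the table. With 1 array per breed there was no replicate check and no test, so the values are a description of 2 arrays, and that number limits their precision. Among 42 probes printed several times, the SD between spots was 0.20 in the minipig and 0.15 in the conventional pig in log2, or 0.25 when single spots are set against each other across the arrays. That spread is between spots and does not cover animals.

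All 11 probes of the 6 genes were well above background on both arrays, each from 1 spot. The error that the scanner software gives for a spot led to an error of 0.20 or 0.21 for every log2 difference. The median local background around these spots lay between 17 and 28 in intensity units.

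The 3 mitotic genes were all higher in the minipig, each by more than 2-fold. MYC and CCND2 were higher on the same array by less than 2-fold, and CCND3 was higher in the conventional pig by less than 2-fold. At least 2-fold higher in the minipig were 3 of the 6 genes, beside 7.96% of all genes with a value, and 5 of the 11 probes, beside 8.94% of all probes. At least 2-fold higher in the conventional pig were 0 of the 6 genes, beside 11.7% of all genes, and 1 of the 11 probes, beside 7.48% of all probes. The counts in the minipig lay above the shares over all genes and probes. The members were chosen with earlier results of these data known, so this excess is not an independent result. The genes and probes are too few to set the counts in the conventional pig apart from those shares. Among genes past 2-fold, 40.4% were higher in the minipig, against 27.8% when each array was centred on its median. For probes that share was 54.4%, against 40.2% with median centring and 41.1% with normexp background correction. The median log2 difference of all genes was 0.04, and median centring moved it to 0.19.

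**Figure D1:**
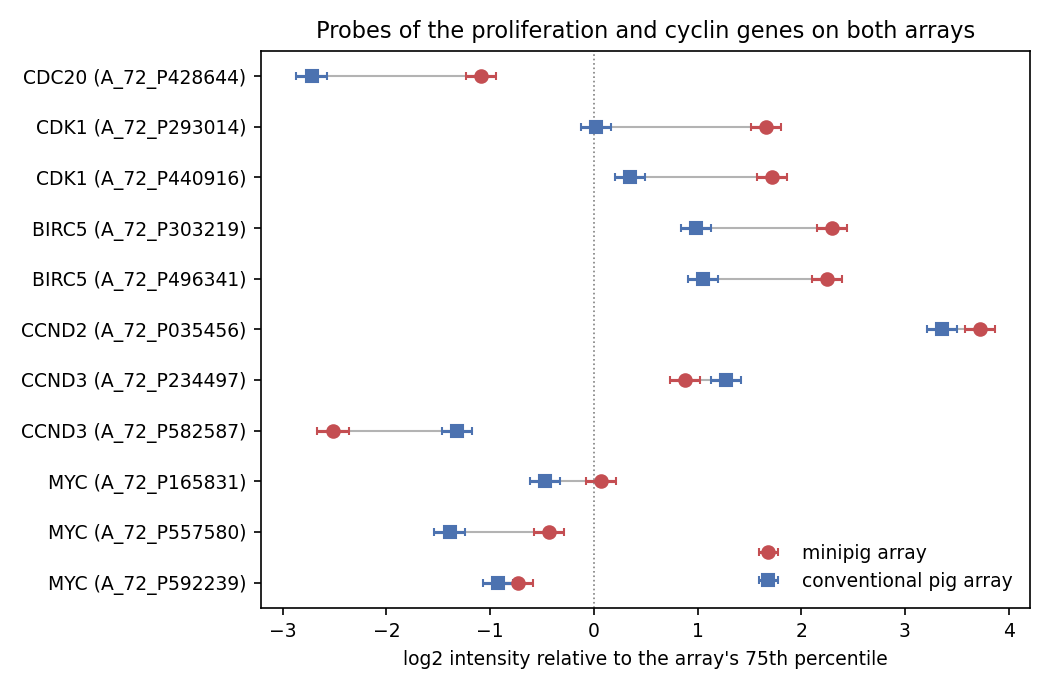
Level of each of the 11 probes in the minipig (circles) and the conventional pig (squares), in log2 intensity relative to the 75th percentile of the array. Bars show the error the scanner software gives for the spot, and the levels of different probes are not comparable. The 5 probes of CDC20, CDK1 and BIRC5 are separated by between -1.64 and -1.19, and the 2 probes of CCND3 run in the other direction.

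CDC20 encodes the activator of the anaphase-promoting complex that lets sister chromatids separate. Its probe, for transcript NM_001123094, had an intensity of 232 in the minipig and 77.8 in the conventional pig. These are levels of -1.09 and -2.72, a log2 difference of -1.63, or 3.09-fold higher in the minipig. The lower intensity stood beside a local background of 22, and the spot was flagged as well above background on both arrays. The difference was larger than the 0.25 between single spots, and CDC20 has no other probe against which it could be checked. Ordered from the gene highest in the minipig, CDC20 was at rank 69 of 2363, within the first 2.92%.

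CDK1 encodes the kinase that triggers entry into mitosis. The first of its probes, A_72_P293014 for transcript NM_001159304, had an intensity of 1565 in the minipig and 522 in the conventional pig, levels of 1.66 and 0.02. The other, A_72_P440916, had 1622 and 652 in the same order, levels of 1.71 and 0.35. The log2 differences of -1.64 and -1.37 lay 0.27 apart, close to the spread between single spots, so both probes gave nearly the same change. Together they put CDK1 at -1.50, or 2.83-fold higher in the minipig, at rank 79 of 2363.

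BIRC5 encodes survivin, a subunit of the chromosomal passenger complex that guides chromosome attachment and cytokinesis, and also a member of the inhibitor of apoptosis family. Probe A_72_P303219, for transcript NM_214141, had an intensity of 2428 in the minipig and 1017 in the conventional pig, levels of 2.30 and 0.99. Probe A_72_P496341 had 2344 and 1064 in the same order, levels of 2.25 and 1.05. The probes differed from each other by 0.12, less than the spread between single spots. BIRC5 had a log2 difference of -1.25, or 2.38-fold higher in the minipig, at rank 121 of 2363. The log2 differences of CDC20 and CDK1 were 0.13 apart and those of CDK1 and BIRC5 0.25 apart, so neighbours in this order did not differ beyond the spread of single spots.

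As a set, the mitotic genes had a median log2 difference of -1.50, with all 5 probes past 2-fold in the same direction. The lowest was -1.64 and the highest -1.19. The 3 genes were also past 2-fold with median centring, quantile and loess normalization, normexp background correction and the brightest probe of each gene. The filters on dim probes leave these probes as they are, and the deposited log2 table holds only probes past 2-fold, so neither bears on this. In bulk tissue, fewer dividing cells and less RNA of these genes per cell cannot be told apart.

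**Figure D2:**
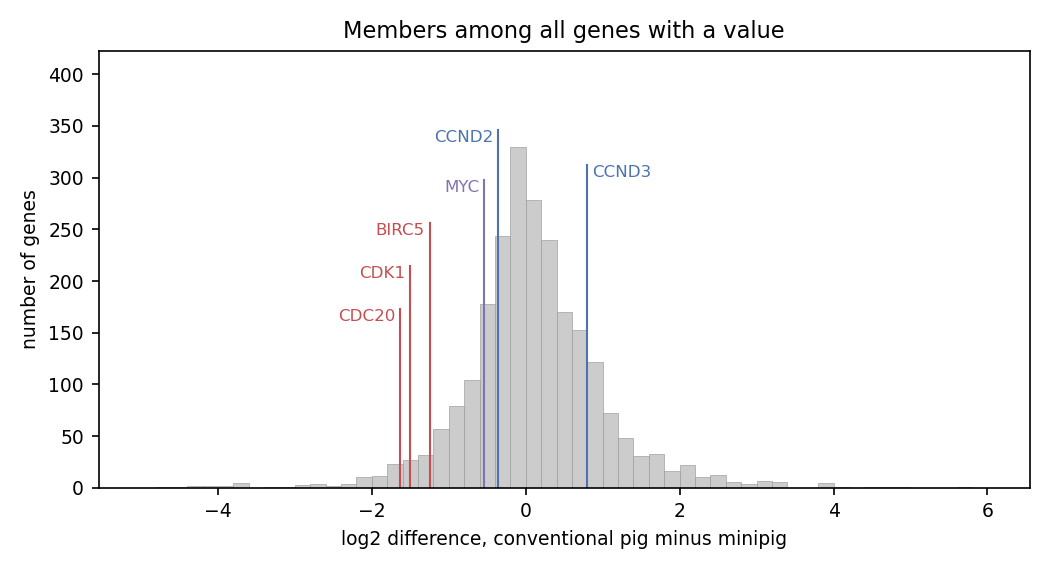
Number of genes by log2 difference, conventional pig minus minipig, for the 2363 genes with a value (grey bars, 0.2 wide), with the 6 genes as vertical lines whose heights carry no value. CDC20, CDK1 and BIRC5 lie in the lower tail, MYC and CCND2 below the centre of 0.04, and CCND3 above it.

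The D cyclins gave smaller differences that went in opposite directions. CCND2 encodes cyclin D2, the D cyclin that granulosa cells need to multiply in rodents. Its probe, for transcript NM_214088, had an intensity of 6525 in the minipig and 5250 in the conventional pig, levels of 3.72 and 3.36. The log2 difference was -0.37, or 1.29-fold higher in the minipig, at rank 583 of 2363. This is little more than the 0.25 between single spots, and it ran from -0.21 with median centring to -0.70 with quantile normalization, without a change of direction.

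CCND3 encodes cyclin D3, which also binds CDK4 and CDK6 and persists in many cells that differentiate. Probe A_72_P234497, for transcript NM_001078678, had an intensity of 909 in the minipig and 1244 in the conventional pig, levels of 0.88 and 1.28 and a log2 difference of 0.40. Probe A_72_P582587 had 86.4 in the minipig and 206 in the conventional pig, levels of -2.52 and -1.32 and a log2 difference of 1.20. Both probes were higher in the conventional pig, but they were 0.80 apart, and only the second was past 2-fold. The gap was larger than the 0.25 between single spots, although that is the spread of 1 log2 difference. A gap between 2 log2 differences spreads more. For comparison, the median SD between probes of a gene was 0.20 over 1220 genes with several probes, and 12.7% of those genes had probes more than 1 apart. The gene value of CCND3 was 0.80, or 1.74-fold higher in the conventional pig, at rank 1964 of 2363. It was 0.40 with the brightest probe alone and 1.19 in the deposited log2 table, which holds only probes past 2-fold and so lists the second probe alone.

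The median of the D cyclins was 0.22. The mitotic genes minus the D cyclins therefore gave -1.72 in log2, a difference between differences from which any shift common to an array cancels. The 5 mitotic probes ran from -1.64 to -1.19 and the 3 probes of the D cyclins from -0.37 to 1.20, without overlap. Only 8.94% of all probes were at least 2-fold higher in the minipig, so most probes lie clear of the mitotic ones. The size of this contrast depended on which D cyclin was used, being -1.14 against CCND2 alone and -2.30 against CCND3 alone. It was -1.30 with normexp background correction and -1.38 with the brightest probe of each gene. Quantile and loess normalization gave -1.53 and -1.60, and median centring and the filters on dim probes cannot change it.

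MYC encodes a transcription factor that mitogens induce and that promotes growth and entry into the cycle. Its 3 probes, for transcript NM_001005154, were all higher in the minipig and differed in size. The intensity of A_72_P165831 was 519 in the minipig and 371 in the conventional pig, levels of 0.07 and -0.47. That of A_72_P557580 was 367 and 196, levels of -0.43 and -1.39, and that of A_72_P592239 was 297 and 270, levels of -0.73 and -0.93. The log2 differences were -0.54, -0.96 and -0.19 in the same order, of which the last was within the spread of single spots. The value for the gene was -0.54, or 1.45-fold higher in the minipig, at rank 424 of 2363. MYC stood between the mitotic genes and the D cyclins in this order, nearer to CCND2, from which it was 0.17 apart.

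Other genes of the cell cycle were taken from 7 lists by role, which hold 186 genes. Only 18 of them could be named and had a value, so the lists describe these genes and do not stand for the pathways. Their median log2 difference was -0.76, beside 0.04 for all genes, and 16 of the 18 were below 0. At least 2-fold higher in the minipig were 4 genes, beside 7.96% of all genes. At least 2-fold higher in the conventional pig was 1, beside 11.7% of all genes, and 13 were within 2-fold. The median was -0.48 with normexp background correction.

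Among cyclins and kinases of G2 and mitosis, 6 of 21 genes had a value, all of them below 0, with a median of -0.84 that became -0.41 with normexp background correction. CCNB1, the cyclin partner of CDK1, was the only gene of this list past 2-fold. Its level was 1.83 in the minipig and 0.42 in the conventional pig, a log2 difference of -1.42, next to the -1.50 of CDK1 itself. CCNB2, the other B cyclin with a value, was at -0.92 and within 2-fold. AURKA, the kinase of centrosome maturation, was at -0.95, with probes at -1.15 and -0.75, and was past 2-fold when the brightest probe was used. CDC25C, a phosphatase that activates CDK1, was at -0.19. PKMYT1, a kinase that inhibits CDK1, was not well above background in the conventional pig, and it was at least 1.70-fold higher in the minipig with the scaling used here. Its log2 difference of -0.76 became -0.39 with quantile normalization, -0.44 with loess normalization and -0.20 with normexp background correction. For this bound the dimmer array was given the lowest intensity flagged as above background there, or the intensity of the probe itself if higher.

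The list of chromosome, kinetochore and cytokinesis genes had values for 4 of 41 genes and a median of -1.44. AURKB, the kinase of the complex that also holds BIRC5, was at -1.59, TOP2A, which untangles DNA before chromosomes separate, at -1.43, and STMN1, a regulator of microtubules, at -1.45. The 5 probes of STMN1 ran from -1.56 to -1.45, closer together than the spread of single spots. The 3 probes of AURKB were farther apart, at -1.67, -1.59 and -0.02. The last was the brightest, so AURKB was within 2-fold when the brightest probe was used, at -0.02, and also with normexp background correction, at -0.93. The median of this list was -0.73 with the brightest probes. KPNA2, a nuclear import factor, was on the other side at 0.29. FZR1, which replaces CDC20 as activator of the anaphase-promoting complex late in mitosis, was the only 1 of 33 genes of the spindle checkpoint and that complex with a value, at -0.30.

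Genes of G1 and of DNA replication, apart from CCNG1, showed smaller differences than the mitotic genes. CDK4, the kinase partner of the D cyclins, had a level of -1.32 in the minipig and -1.68 in the conventional pig. Its log2 difference of -0.36 was close to the -0.37 of CCND2. CCNG1, an atypical cyclin that p53 induces, was the only other gene with a value among 17 G1 cyclins and kinases, and it was higher in the conventional pig at 1.27, with probes at 1.11 and 1.42. Of 47 DNA replication genes, 2 had a value: MCM3, a subunit of the replicative helicase, at -0.85 and DBF4, the activator of the CDC7 kinase, at -0.71. The 19 genes of the RB and E2F family had no value.

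Inhibitors of cyclin-dependent kinases lay on the same side as the mitotic genes, except for CDKN2B under some scalings. Of 8 genes, 3 had a value, and their median was -0.53. CDKN1B, which encodes p27 and restrains the cycle in differentiating granulosa cells, was at -0.85. CDKN3, a phosphatase that acts on cyclin-dependent kinases, was at -0.53. CDKN2B was at -0.08, a direction that turned with median centring, quantile and loess normalization.

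**Figure D3:**
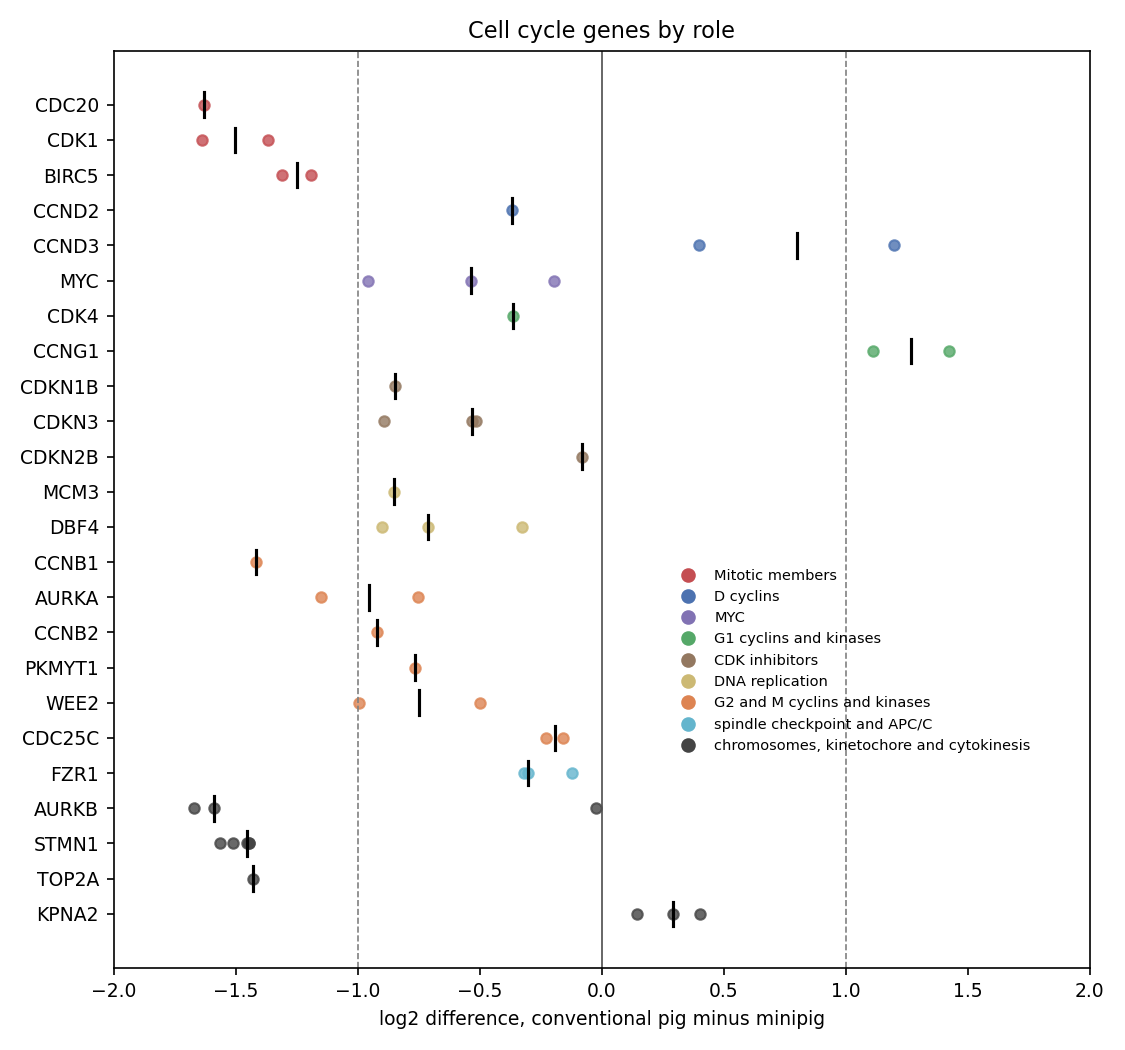
Log2 difference, conventional pig minus minipig, of every probe with a value for the 6 genes and 18 other cell cycle genes, coloured by role. Points are probes, black ticks are gene values, and dashed lines mark 2-fold. The 3 mitotic genes, CCNB1, STMN1, TOP2A, most probes of AURKB and 1 probe of AURKA lie left of the 2-fold line at -1. CCNG1 and 1 probe of CCND3 lie right of the line at 1.

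The few other measured genes of the MYC network and the inhibitor of apoptosis family lay on the other side, except for LDHA under quantile normalization. Of 20 genes in the MYC network, 2 had a value. ODC1, the enzyme that starts polyamine synthesis and a classical MYC target, was at 0.75, and LDHA, lactate dehydrogenase A, was at 0.32 but at -0.02 with quantile normalization. XIAP was the only gene with a value among 7 other members of the inhibitor of apoptosis family. Its level was 0.12 in the minipig and 1.49 in the conventional pig. The log2 difference of 1.36 is opposite in direction to the -1.25 of BIRC5, and both probes of XIAP, at 1.18 and 1.54, were past 2-fold.

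Markers of several ovarian cell types moved with the mitotic genes, and their part in the result was not tested. Marker counts stand beside 7.96% of all genes at least 2-fold higher in the minipig and 11.7% in the conventional pig. Of 16 granulosa markers, 11 had a value, with a median of -1.13, and 7 were at least 2-fold higher in the minipig and 0 in the conventional pig. With median centring GATA4 and AMH came within 2-fold, and the median of the granulosa markers was -0.98. Their summed level, in multiples of the 75th percentile of the array, was 49.7 in the minipig and 24.2 in the conventional pig, and the brightest were HSD17B1 and FST, respectively. In these sums each gene entered as the mean intensity of its probes, not their median, and the brightest gene was picked by that mean. Such a sum is set only against the sum over the same probes on the other array. It follows the brightest probes of the list, and brightness does not rank the transcripts by abundance. The 7 genes were FSHR at -3.63, HSD17B1 at -2.96, INHA at -2.61, NR0B1 at -2.43, INHBA at -1.77, GATA4 at -1.13 and AMH at -1.03. Other granulosa markers were within 2-fold, among them FST at -0.08 and CYP19A1 at 0.09, and probes disagreed for CYP19A1, at -0.34 and 0.52, for INHBA, at -3.91 and 0.37, and for AMH, with 4 probes from -2.22 to -0.09. The aromatase paralogues CYP19A2 and CYP19A3, outside the list and chosen after their values were seen, were at -4.22 and -4.11, and binding of each transcript by the probes of the others was not tested. Oocyte markers, 10 of 21 with a value, had a median of -1.13, which was -0.97 with median centring and -0.88 with normexp background correction. Of them, 5 were past 2-fold in the minipig. Their summed level was 15.1 and 4.87, with KIT, at -2.04, the brightest on both arrays, and the others past 2-fold were MOS at -1.75, KPNA7 at -1.61, ZP4 at -1.41 and ZP3 at -1.33. The probes of KPNA7 disagreed, at -2.99 and -0.23.

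Of the luteal markers, 5 were past 2-fold in the direction opposite to the mitotic genes. Of 12 listed, 10 had a value, with a median of 1.55, and the other 5 were within 2-fold. Their summed level was 228 in the minipig and 619 in the conventional pig, with OXT and SCARB1 the brightest, respectively. By the median over probes, STAR, at a level of 7.19, was above SCARB1, at 5.29, in the conventional pig. STAR, which brings cholesterol into mitochondria, was at 3.07, HSD3B1, which makes progesterone, at 3.11, CYP11A1 at 2.63, PTGFR at 2.48 and SCARB1 at 2.46. LHCGR, the receptor of luteinizing hormone, at -0.62, and PRLR, the prolactin receptor, at -0.55, lay on the side of the mitotic genes, within 2-fold. These 10 luteal markers were well above background on both arrays, as were 36659 of all 43597 probes, so this does not set them apart. The tissue is described as free of corpora lutea, and whether luteal cells remained was not tested. Theca markers were divided, 6 of 10 with a value and a median of -0.88. INSL3 at -3.76, CYP17A1 at -1.74 and ANPEP at -1.13 were past 2-fold in the minipig, and STAR and CYP11A1, which stand in both lists, in the conventional pig. Probes differed in size for CYP17A1, at -2.49 and -0.99, and for ANPEP, with 3 probes from -1.32 to -0.18. The summed level of the theca markers was 111 and 232, with INSL3 the brightest in the minipig and STAR in the conventional pig. The sum and the median of this list thus differed in direction.

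The remaining lists had medians closer to 0. Endothelial markers, 4 of 11, had a median of 0.68 and none past 2-fold, from CDH5 at 0.36 to FLT1 at 0.95, with summed levels of 4.57 and 7.38 and ENG the brightest. Smooth muscle and stroma markers, 5 of 14, had a median of -0.36 and summed levels of 146 and 118, with ACTA2 the brightest. DES, 3.99-fold higher in the minipig, and CNN1, at -1.32, were past 2-fold. Lymphocyte markers, 8 of 17, had a median of 0.03 that turned with normexp background correction and the brightest probes. Their summed levels were 1.53 and 1.45, with LCK the brightest. By the median over probes, CD3E, at a level of -1.28, was above LCK, at -1.49, in the conventional pig. CD3G was the only lymphocyte marker past 2-fold, at -1.31, which rests on a probe with a bound of -2.20, while its probe measured on both arrays was at -0.42, and CD4 was not well above background on any array. Macrophage and granulocyte markers, 9 of 13, had a median of 0.14 that turned with the brightest probes, summed levels of 9.11 and 11.5, and CD163 and AIF1 the brightest. Of these, S100A12 at 1.52, S100A8 at 1.30 and CD14 at 1.04 were past 2-fold. None of 6 red cell markers could be named.

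**Figure D4:**
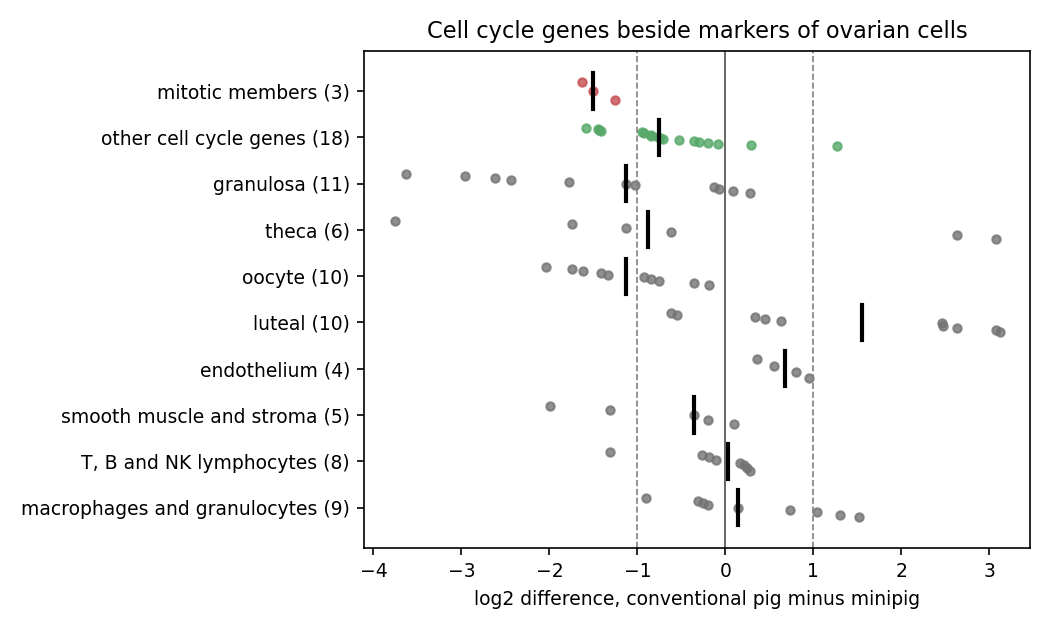
Log2 difference, conventional pig minus minipig, of the 3 mitotic genes, the 18 other cell cycle genes and markers of 8 kinds of cells, with the number of genes with a value in brackets. Points are genes, spread vertically for legibility, black ticks are medians and dashed lines mark 2-fold. The medians of granulosa and oocyte markers, both -1.13, lie on the side of the mitotic genes, and that of luteal markers, 1.55, on the other.

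The mitotic genes stayed apart from the other 3 genes under every alternative that gave values for them. Over its alternatives CDC20 ran from -1.63 to -1.16, CDK1 from -1.60 to -1.35 and BIRC5 from -1.43 to -1.10. MYC ran from -0.54 to -0.38 and CCND3 from 0.40 to 1.19. The ranges of the mitotic genes overlapped each other and did not reach those of MYC and the D cyclins. Most genes lie clear of the mitotic genes, since only 7.96% of all genes were at least 2-fold higher in the minipig. MYC and CCND2 changed places with quantile normalization, at -0.51 and -0.70, and with loess normalization, at -0.50 and -0.60.

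**Figure D5:**
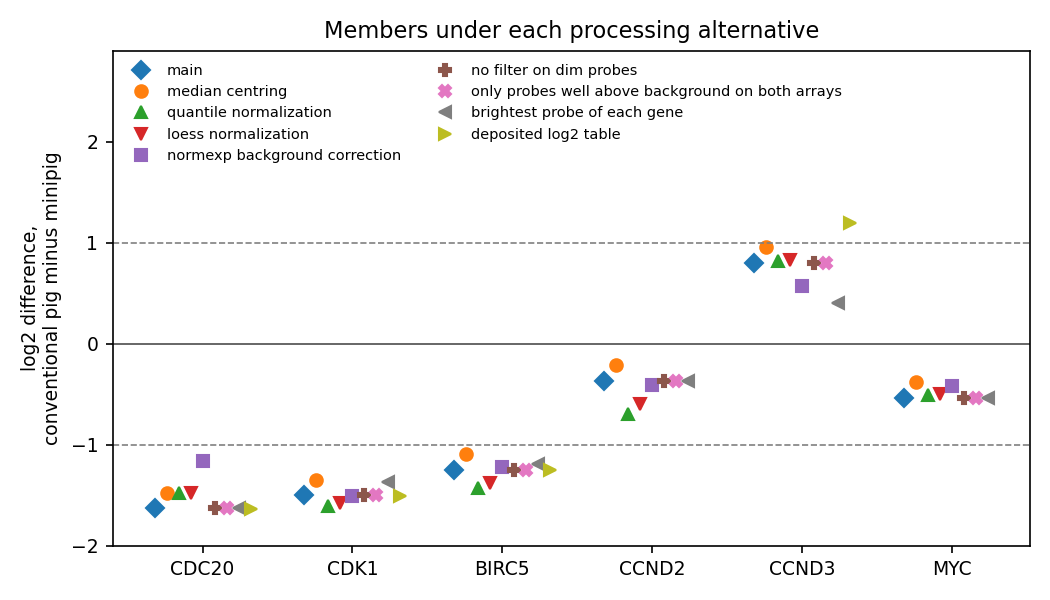
Log2 difference, conventional pig minus minipig, of each of the 6 genes as reported (diamonds, labelled main) and under each processing alternative. The deposited log2 table gives no value for CCND2 and MYC. CDC20, CDK1 and BIRC5 lie below the dashed 2-fold line at -1 with each scaling, with normexp and with the brightest probe, and values from the table lie past a line by construction, since it lists only probes past 2-fold.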

How the data were processed

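RNA of both ovary samples was labelled with Cy3 and hybridised to single-colour Agilent arrays. The authors ran Agilent Feature Extraction 10.7.3.1, per the labels, and deposited each spot's intensity, corrected for background within the array and not normalized between arrays. They also deposited a log2 table of 5617 probes, which equals log2 intensity minus 9.00 for the conventional pig array and 8.94 for the minipig array. Its column medians were -0.93 for the column labelled minipig and -0.66 for the other. The paper names GeneSpring for normalization and counts probes at several fold cutoffs, of which all probes of the table pass 2-fold.

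Control spots and outlier spots (5 on the minipig array, 10 on the conventional pig array) were removed, 0 spots were saturated, repeated spots were averaged in log2, and the 75th percentile of each array was subtracted, leaving 43597 probes. Of these, 36659 were well above background on both arrays, 2243 on 1 array and 4695 on neither. A bound was given for 2224 of the 2243, and for the other 19 it would have had the wrong sign. Accessions without versions were matched to the RefSeq table of Sscrofa11.1, which named 5577 probes, and no coordinates were used. The named genes were the 6 members and, in each list, every gene past 2-fold and otherwise the highest gene on each array. Any other gene of a list that the text names was chosen after its values were seen. The result of 1 marker gene is not reported here. The members and lists were chosen with earlier results of these data known.

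The alternatives were median centring, quantile normalization, loess normalization (span 0.3), normexp background correction (offset 50), dim probes kept without bounds, dim probes dropped unless both arrays measured them, the brightest probe of each gene, counts of gene symbols, and the deposited log2 table. Mean spot signals were not used here, so normexp took the medians of the spot and of its local background. The steps were tested on simulated data. Normexp was run with limma 3.58.1 in R 4.3.3, and all else in Python 3.11.15, using pandas 2.3.3, numpy 2.4.6, matplotlib 3.10.9 and statsmodels 0.14.6.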

Additional observations from a re-analysis of the deposited data

How the results depend on the processing

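CDK1, BIRC5 and MYC moved by less than the spread of single spots under every alternative that gave a value, and no gene among the 6 changed direction. With normexp background correction CDC20 was at -1.16, the contrast of mitotic genes and D cyclins at -1.30, the median of the other cell cycle genes at -0.48, and 1411 probes were at least 2-fold higher in the minipig, against 3475. Quantile normalization put CCND2 at -0.70. The brightest probe put CCND3 at 0.40, and the deposited log2 table put it at 1.19, in both cases because 1 of its 2 probes was used. With the brightest probes the contrast was -1.38, and in it CDK1 also rested on 1 of its probes, at -1.37. With CCND2 alone or CCND3 alone as the D cyclin, alternatives chosen after seeing the data, the contrast was -1.14 or -2.30. Counted as gene symbols, 188 were at least 2-fold higher in the minipig and 277 in the conventional pig. The totals were smaller because far fewer symbols than probes were counted, and why the balance between the arrays turned was not tested. The cause of the other shifts was not tested. The log2 table lists no probe of CCND2 or MYC, so it gave no contrast, and since all of its probes differ at least 2-fold it was used for no list. Of 244 values of other genes and lists under alternatives, 18 moved by more than 0.25 and 7 changed sign, none of these from a value past 2-fold. Signal over background limits dim probes, and 4714 gave no difference or bound.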

Other observations

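Some further genes of dividing cells, chosen after their values were seen, stand in none of the lists, and their log2 differences (conventional pig minus minipig) did not all go the same way. HMGB2, a chromatin protein abundant in dividing cells, was at -1.42 over 4 probes, from -2.01 to -0.82. SPAG5, a protein of the mitotic spindle, was at -1.53 over 3 probes, from -1.90 to -0.71, 1 of them a bound. DNMT1, which copies DNA methylation after replication, was at -1.04, with 6 probes from -1.20 to -0.84. RAD54L, of homologous recombination, and CEP250, of the centrosome, were at -1.04 and -1.05 from 1 probe each. With median centring DNMT1, RAD54L and CEP250 were within 2-fold, at -0.89, -0.89 and -0.90. CDCA7, a gene that MYC and E2F induce, was at 0.92, with 3 probes from 0.08 to 1.15. Smaller differences were those of CENPM, of the centromere, at 0.18, H2AFZ, a histone variant, at -0.31 and PBK, a mitotic kinase, at -0.39.

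Antiproliferative genes, also chosen after their values were seen, were found on both sides. BTG2 was at -2.07, with probes at -2.35 and -1.79, BTG1 of the same family was at -0.55, and GADD45A, a growth arrest gene that DNA damage induces, was at -1.46. BTG3 was at 0.69, with 3 probes from 0.63 to 0.76, and P14ARF, a tumour suppressor that acts through p53, was at 1.23, with probes at 1.17 and 1.29. Of other genes, TUBA1B, an alpha tubulin, was at 1.62, and its 12 probes ran from 1.37 to 1.91. SPDYA, an activator of CDK2, was at 1.70 over 4 probes, from 0.49 to 2.21, of which 2 were bounds.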
